A study of Mus musculus with 6 samples.

Results

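Immune checkpoint ligands are surface or secreted proteins through which a tumour cell can signal to T cells, NK cells and macrophages. The set held 10 genes, matched by symbol and put together with earlier results of these data known: Cd274, Pdcd1lg2, Vsir, Cd276, Pvr, Cd80, Cd86, Cd47, Lgals9 and Nt5e. Of these, 9 were among the 16081 genes listed for this series, and Cd86 was not analysed here. The transcripts came from cultured Lewis cells (a lung carcinoma line of the mouse, labelled as lung adenocarcinoma) after 24 hours of exposure to SD70, an inhibitor of the histone demethylase KDM4C, or to DMSO. There were 3 samples per group, and all were grown in the same serum-containing medium. The RNA-seq text gives no SD70 dose, and the labels name cultured cells as the source, although their extraction text speaks of ground tissue. The labels do not say whether the 3 samples of a group were separate cultures, and the study's general statement that experiments were independently repeated does not name these samples, so the p-values measure the spread between these samples, which may be technical.

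PD-L1 (the product of Cd274) and PD-L2 (Pdcd1lg2) bind the inhibitory receptor PD-1 on T cells, and antibodies against this pair are used as checkpoint blockade. VISTA (Vsir) and B7-H3 (Cd276) are relatives of the same B7 family with mainly inhibitory effects on T cells, while B7-1 (Cd80) and B7-2 (Cd86) bind both the costimulatory receptor CD28 and the inhibitory receptor CTLA-4. The remaining members act outside the B7 family: the poliovirus receptor Pvr (CD155) binds TIGIT, CD96 and CD226, Cd47 gives macrophages a signal against engulfment through SIRPα, galectin-9 (Lgals9) is a ligand of TIM-3, and CD73 (Nt5e) makes extracellular adenosine.

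The stretches just upstream of a transcript start of Vsir and of Cd274 are shown because these genes had the largest fall and the largest rise among the 6 members with enough counts to test. Both are the 250 bases before the start site in RefSeq on GRCm38.p6, plus strand, 5′ to 3′, and cover chr10:60346601-60346850 for Vsir and chr19:29367188-29367437 for Cd274. The Cd274 window lies inside the span of the gene, whose first annotated base is 29362107, and precedes the start at 29367438. Capitals mark matches to any of 7 short motifs.

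Vsir: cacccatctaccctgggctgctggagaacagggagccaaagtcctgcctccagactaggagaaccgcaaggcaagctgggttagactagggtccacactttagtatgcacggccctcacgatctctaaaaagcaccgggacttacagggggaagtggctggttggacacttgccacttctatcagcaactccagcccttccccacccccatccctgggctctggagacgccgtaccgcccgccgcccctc

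Cd274: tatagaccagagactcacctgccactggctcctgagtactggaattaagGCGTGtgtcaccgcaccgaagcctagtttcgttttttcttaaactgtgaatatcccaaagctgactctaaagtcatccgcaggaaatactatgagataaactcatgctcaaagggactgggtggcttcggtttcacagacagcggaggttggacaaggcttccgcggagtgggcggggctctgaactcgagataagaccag

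The motifs, searched on both strands, were the interferon-stimulated response element (GAAA, any 2 bases, GAAA), TTCNNNGAA (STAT), the NF-kB motif (GGG, any 5 bases, CC), ACGTG and GCGTG (hypoxia response cores), TGANTCA (AP-1) and TGATGNAA (ATF4 composite). In the Cd274 window, GCGTG alone matched, at bases -201 to -197 from the start site, and in the Vsir window none of the 7 did. GCGTG occurred in 28.2% of the 32851 RefSeq windows of this length and in 45.1% of the 11714 windows of tested genes. The interferon-stimulated response element occurred in 2.98% and 2.48%, and the NF-kB motif, the most frequent of the 7, in 45.8% and 61.3%. A match or its absence describes these letters in this window alone. The Vsir window held 9 CG dinucleotides and the Cd274 window 11.

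Expression of the members spanned a wide range in Lewis cells (plot of FPKM by library). FPKM is the deposited value without a unit, taken as scaled for transcript length and library size, so that levels of different genes can be compared. With DMSO, Pvr was highest at 97.8 ± 7.396 FPKM, followed by Cd47 at 77.4 ± 1.49 and Lgals9 at 14.4 ± 0.0611 (SD, n = 3 each). Pvr lay above 94.98% of the listed genes and Cd47 above 93.4%. Cd276 at 7.08 ± 0.131 FPKM and Vsir at 6.10 ± 0.612 came next, near the middle of the listed genes, followed by Cd274 at 2.22 ± 0.187 (SD, n = 3 each). All neighbours in this order were separated in every DMSO sample, the closest being Cd276, lowest at 6.94, and Vsir, highest at 6.45. Together Pvr and Cd47 made up most of the summed FPKM of the members, with Pvr giving between 46.4% and 51.4% and Cd47 between 36.5% and 38.6% in the 6 samples.

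**Figure D1:**
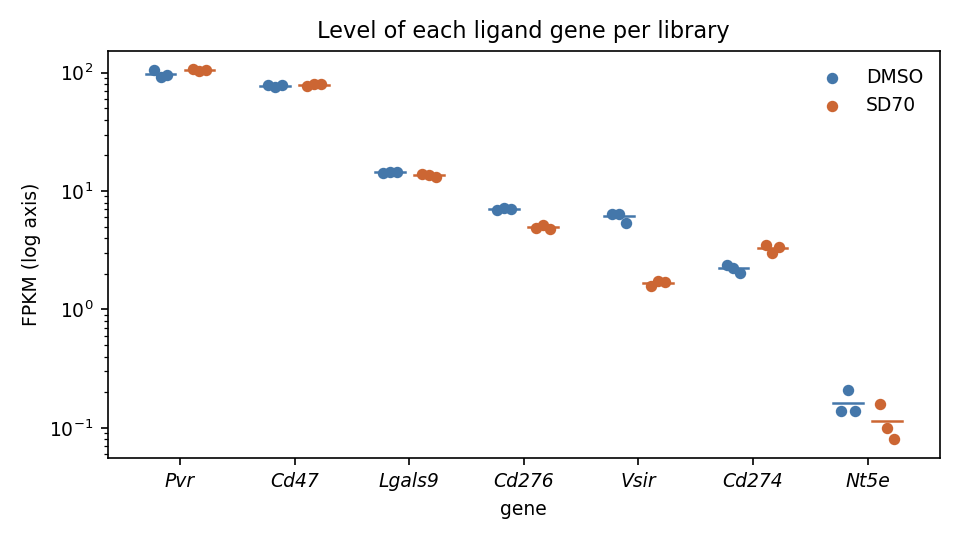
Level of 7 ligand genes in FPKM on a log axis, each point 1 library and each line the mean of 3 libraries kept with DMSO or SD70. Vsir lay above Cd274 in all DMSO libraries, at 5.39 FPKM or more against 2.39 or less, and below it in all SD70 libraries. Cd80 and Pdcd1lg2, listed at 0 in some libraries, are not drawn.

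With SD70, Cd274 stood above Vsir. The order of the other members was as with DMSO. In SD70-treated cells Cd276 was at 4.93 ± 0.194 FPKM, Cd274 at 3.28 ± 0.261 and Vsir at 1.67 ± 0.0777 (SD, n = 3 each). The ratio of Cd274 to Vsir within a sample, taken on FPKM, was 0.371, 0.349 and 0.375 with DMSO against 2.20, 1.72 and 2.00 with SD70 (p = 0.1 by a two-sided exact permutation test, which cannot go lower with 3 samples against 3). Since every SD70 sample was lower for Vsir and higher for Cd274, the ratio could only separate. It therefore adds no support beyond the single genes.

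SD70 was then compared with DMSO for each member. Of the 9 listed members, 6 passed the filter on low counts, and 3 (Pdcd1lg2, Cd80 and Nt5e) did not. Vsir and Cd276 fell and Cd274 rose with an adjusted p-value under 0.01, while Pvr, Cd47 and Lgals9 did not pass. Over all 11552 genes tested, 49.9% passed this threshold (25.8% of all genes tested as higher and 24.2% as lower), so 3 of 6 was close to that share. With a further requirement of at least a 2-fold change, 1 member (Vsir) was called lower and 0 were called higher. That rule called 5.90% of all genes tested (3.29% as higher and 2.61% as lower). The median log2 fold change was -0.0016 over the 6 members and -0.0043 over all genes tested. The groups did not overlap in 5 of the 6 members, against 64.4% of all genes tested.

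**Figure D2:**
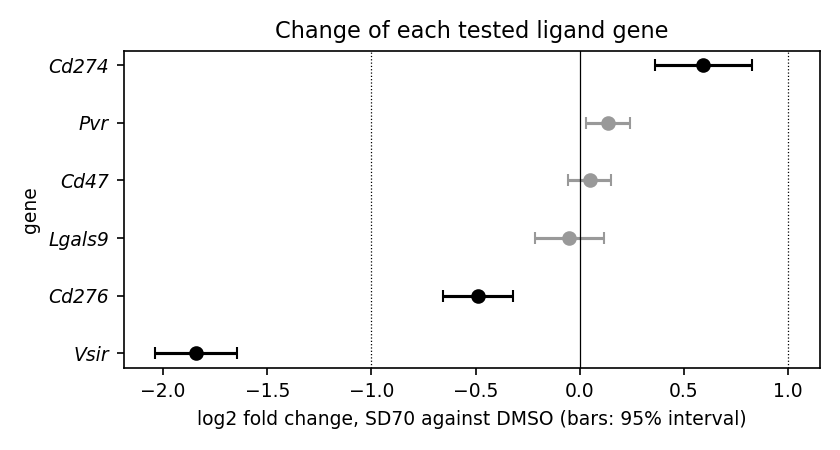
Log2 fold change of the 6 tested ligand genes with SD70 against DMSO, with 95% intervals from the edgeR fit, black where the adjusted p-value was under 0.01 and grey otherwise. Dotted lines mark a 2-fold change. Vsir alone lies beyond them, at -1.84, while Cd276 and Cd274 lie between them on opposite sides of 0.

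Vsir (NCBI Gene 74048) encodes VISTA, which can act as a ligand and as a receptor on T cells. The gene runs along the plus strand at chr10:60346851-60430294 in RefSeq on GRCm38.p6. Its normalized counts (counts brought to a common library size) were 492, 488 and 411 with DMSO against 123, 134 and 131 with SD70. The lowest DMSO sample, at 411, was still well above the highest SD70 sample, at 134. The log2 fold change was -1.84 (standard error 0.0965, edgeR adjusted p = 7.77e-18), a 3.58-fold fall with a 95% interval from 3.13 to 4.11. In bulk samples such as these, fewer cells of one kind and less RNA per cell cannot be told apart. Cdh23, a protein-coding gene of the opposite strand that spans this locus without sharing exon bases, had 14, 16 and 10 counts with DMSO against 4, 7 and 3 with SD70.

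Cd276 (NCBI Gene 102657) encodes B7-H3, a B7 family protein often found on solid tumours. It lies on the minus strand at chr9:58524300-58555033. Normalized counts were 343, 355 and 353 with DMSO against 248, 260 and 241 with SD70. The groups did not overlap, and the spread within each was small. The log2 fold change was -0.49 (standard error 0.0837, edgeR adjusted p = 6.05e-06), a 1.40-fold fall with a 95% interval from 1.25 to 1.58.

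Cd274 (NCBI Gene 60533) encodes PD-L1, the target of the antibody that the study combined with SD70 in mice. It lies on the plus strand at chr19:29362107-29388095. Normalized counts were 135, 127 and 115 with DMSO against 202, 173 and 196 with SD70. Again the groups did not overlap, although these counts were the lowest of the tested members with DMSO. The log2 fold change was 0.59 (standard error 0.114, edgeR adjusted p = 3.19e-05), a 1.51-fold rise with a 95% interval from 1.29 to 1.77. An antisense gene that was not analysed here shares 511 exon bases with Cd274 in GENCODE M21, and another unlisted gene shares 416 with Cd276. The labels describe no step that keeps the strand, so reads of such pairs could not be told apart. The same holds for other genes named below, among them Itgav (634 shared exon bases), Tnfrsf18 (414), Enpp2 (345), Tnfsf9 (192) and Junb (173, with Prdx2, which had more counts).

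**Figure D3:**
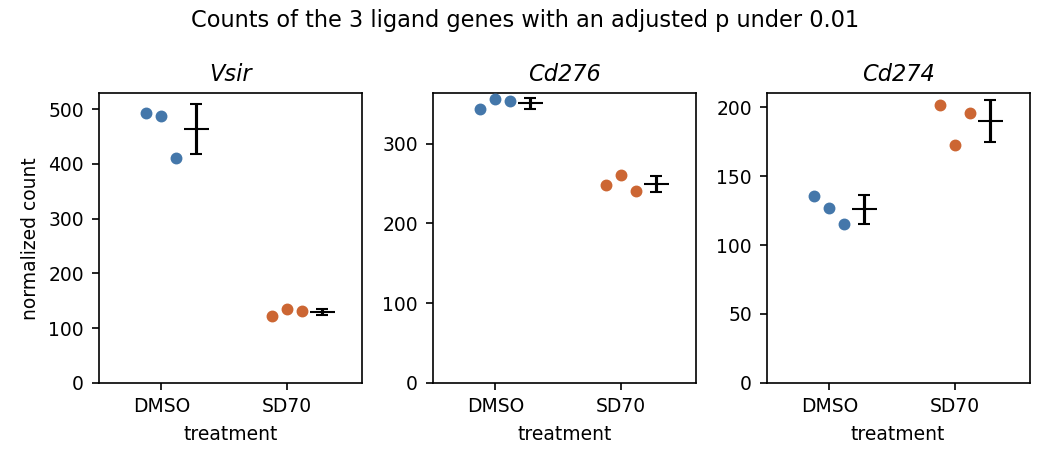
Normalized counts of Vsir, Cd276 and Cd274 on axes that start at 0, each coloured point 1 library, with the mean and SD of 3 libraries in black. The 3 SD70 libraries lie below the 3 DMSO libraries for Vsir and Cd276 and above them for Cd274.

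Pvr (NCBI Gene 52118), at chr7:19903578-19921143 on the minus strand, had 4710, 4075 and 4258 normalized counts with DMSO against 4868, 4726 and 4742 with SD70. The SD70 samples were all above the DMSO samples, the closest pair being 4726 and 4710. The log2 fold change was 0.14 (standard error 0.0522, edgeR adjusted p = 0.0242), with a 95% interval from 0.03 to 0.24. The call depended on DMSO sample 1, without which the log2 fold change was 0.20 and the edgeR adjusted p was 0.00252, while without DMSO sample 2 they were 0.081 and 0.278. Cd47 (NCBI Gene 16423), at chr16:49851328-49912503 on the plus strand, had 2987, 2826 and 2993 normalized counts with DMSO against 2936, 3070 and 3091 with SD70, and the groups overlapped. Its log2 fold change was 0.05 (standard error 0.0498, edgeR adjusted p = 0.433), and the 95% interval from -0.05 to 0.15 allows a rise of up to 1.11-fold. Lgals9 (NCBI Gene 16859), at chr11:78962979-78984924 on the minus strand, had 309, 311 and 316 normalized counts with DMSO against 307, 306 and 290 with SD70. The SD70 samples were all lower, the closest pair being 307 and 309, and the log2 fold change of -0.05 (95% interval from -0.22 to 0.12, edgeR adjusted p = 0.621) did not pass.

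The other 3 listed members were near the limit of detection. Nt5e (NCBI Gene 23959) had 8, 12 and 8 counts with DMSO against 9, 6 and 4 with SD70. Summed over a group these were 28 (exact Poisson 95% interval 18.6 to 40.5) and 19 (11.4 to 29.7), intervals that overlap and cover counting error only. In a fit of all 16056 genes with a count its log2 fold change was -0.46 with a 95% interval from -1.42 to 0.50 (edgeR adjusted p = 0.477), so a change was not detectable at this depth. Cd80 (NCBI Gene 12519) had 2, 0 and 0 counts with DMSO against 1, 2 and 1 with SD70. Pdcd1lg2 (NCBI Gene 58205), next to Cd274 on chromosome 19, had a single count, in DMSO sample 1. A count of 0 allows up to 3 counts in a library (one-sided 95% limit). PD-L1 transcripts were thus measured in every sample with at least 120 counts, while PD-L2 transcripts were not detected in 5 of the 6. The counts of all 9 members were whole numbers in all 6 samples.

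Immune cells carry many of these ligands, so markers of other cell types were examined in the same samples. The leukocyte antigen Ptprc (CD45) had 0, 0 and 0 counts with DMSO against 2, 1 and 2 with SD70, the macrophage receptor Csf1r had a single count in 1 DMSO sample, and Cd8a had at most 4 counts. The 4 pan-leukocyte markers summed to between 1.65 and 2.13 FPKM with DMSO and between 1.46 and 1.95 with SD70, of which Laptm5 alone gave between 1.33 and 1.99 and between 1.12 and 1.68. The 8 listed macrophage and dendritic cell markers of 11 summed to between 25.3 and 26.1 FPKM with DMSO and between 28.6 and 31.6 with SD70, mostly from Cd14 (250, 264 and 265 counts against 400, 434 and 409) and Cd68 (253, 245 and 245 against 175, 155 and 168), which moved in opposite directions. The other tested markers of this list, Lyz2 (12, 11 and 15 counts with DMSO against 26, 21 and 15 with SD70) and Cd74 (17, 19 and 17 against 25, 24 and 29), did not pass, with log2 fold changes of 0.79 and 0.65 (edgeR adjusted p = 0.0256 and 0.0341), but passed with limma on log2(FPKM + 1) (adjusted p = 0.00504 and 0.00498). For the label of carcinoma cells, the keratin gene Krt8 had between 2382 and 4150 counts, while Epcam and Cdh1 had at most 1, and the mesenchymal filament gene Vim had 73431, 66077 and 70460 with DMSO against 45994, 51478 and 44823 with SD70 (log2 fold change -0.47, edgeR adjusted p = 6.69e-10). Krt8 fell as well (log2 fold change -0.55, edgeR adjusted p = 3.28e-11), and so did Krt18 (-1.22, edgeR adjusted p = 2.97e-07). Of the other mesenchymal genes, Fn1 fell (-0.23, edgeR adjusted p = 0.00767) and Cdh2 had a single count, in SD70 sample 1. The 4 fibroblast markers summed to between 194 and 199 FPKM with DMSO and between 156 and 166 with SD70. Log2 fold changes were -0.999 for Pdgfra, -0.19 for Col3a1 and -0.19 for Dcn, while Col1a1 had at most 6 counts in any sample. The part of these markers in the fall of Vsir and Cd276 was not tested.

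Receptors that pair with the members were mostly at the limit of detection. Sirpa, the receptor of Cd47, had a single count in 1 of 6 samples, and so did Ctla4. Cd28 had 3, 5 and 6 counts with DMSO against 13, 11 and 6 with SD70. Of 22 checkpoint receptors on the list, 14 were listed in the files and 4 were tested, of which 3 fell and 0 rose (75% against 49.9% of all genes tested). Tnfrsf18 (GITR) fell from 38.1 ± 4.87 to 9.93 ± 1.93 normalized counts (SD, n = 3 each, log2 fold change -1.92, edgeR adjusted p = 4.00e-07). Tnfrsf9 (4-1BB), a costimulatory receptor and the most abundant of the 4, fell from 2485 ± 111 to 1717 ± 139 (SD, n = 3 each), and its ligand Tnfsf9 fell from 288 ± 9.31 to 165 ± 6.83. Tigit, a receptor of Pvr, fell from 76.7 ± 12.9 to 49.95 ± 11.6 (SD, n = 3 each, log2 fold change -0.61, edgeR adjusted p = 0.0041). That call was lost without DMSO sample 3, SD70 sample 1 or SD70 sample 3 (edgeR adjusted p = 0.0387, 0.0221 and 0.0324) and with DESeq2 (adjusted p = 0.018). Havcr2 (TIM-3), a receptor of Lgals9, had 141 ± 8.81 normalized counts with DMSO and 127 ± 13.2 with SD70 (edgeR adjusted p = 0.302). Pdcd1, Cd226 and Cd96 were not analysed here.

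Among the other ligands of T and NK cell receptors, 16 of 25 listed genes were tested, of which 1 rose and 5 fell, 37.5% against 49.9% of all genes. The median log2 fold change of the 16 was -0.13. Icosl, the B7 family ligand of the costimulatory receptor ICOS, was the gene that rose. Its normalized counts were 132, 118 and 122 with DMSO against 586, 575 and 600 with SD70, a log2 fold change of 2.24 (standard error 0.0872, edgeR adjusted p = 2.00e-21). It was also the list's only gene with a change of at least 2-fold (6.25% against 5.90% of all genes tested, so close to that share). Nectin2, which binds the same receptor family as Pvr, fell from 177 ± 20.98 to 96.9 ± 13.6 (SD, n = 3 each, log2 fold change -0.87, edgeR adjusted p = 4.86e-07). H2-T23, the mouse Qa-1 molecule that presents to the NK receptor NKG2A, fell from 163 ± 18.9 to 87.1 ± 6.09 (SD, n = 3 each), and 4 of its 6 counts were not whole, so its value is uncertain.

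**Figure D4:**
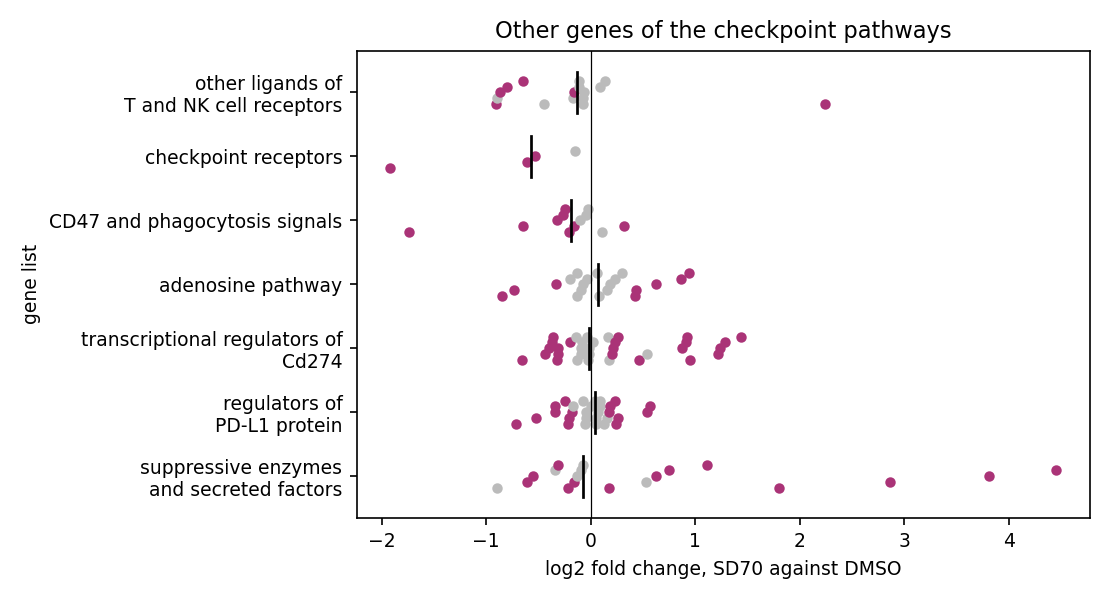
Log2 fold change with SD70 against DMSO of each tested gene in 7 lists of checkpoint pathway genes, the members left out, with purple points for an adjusted p-value under 0.01, grey points for the others and a black line at each list's median. Medians run from -0.57 for the 4 checkpoint receptors to 0.07 for the adenosine pathway.

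Genes listed as possible regulators of Cd274 transcription, the Kdm4 genes among them, moved in both directions. Of 35 tested, 13 rose and 9 fell (62.9% against 49.9% of all genes tested), and the median log2 fold change was -0.01. 4 rose at least 2-fold and 0 fell as far (11.4% against 5.90% of all genes tested). They were the NF-kB subunit Relb (log2 fold change 1.43, edgeR adjusted p = 1.64e-17), the interferon regulatory factor Irf1 (1.29, edgeR adjusted p = 4.38e-16), Myc (1.24, edgeR adjusted p = 1.06e-20) and the AP-1 subunit Junb (1.22, edgeR adjusted p = 3.10e-19). Irf1 went up in normalized counts from 283 ± 12.98 to 690 ± 56.9 and Relb from 381 ± 33.0 to 1029 ± 91.9 (SD, n = 3 each). The 9 genes that fell had log2 fold changes between -0.65 and -0.20, the largest fall being that of the histone demethylase gene Kdm4b (edgeR adjusted p = 4.08e-11), named after its values were seen. Its relative Kdm4a, also named after its values were seen, rose from 1722 to 3336 mean normalized counts (log2 fold change 0.95, edgeR adjusted p = 5.33e-14). Kdm4c itself had a log2 fold change of 0.02 (edgeR adjusted p = 0.769), with a sign that depended on the setting.

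Of 29 regulators of the PD-L1 protein, 7 rose and 8 fell, 51.7% against 49.9% of all genes, and 0 of the 29 changed at least 2-fold (against 5.90% of all genes tested). Cmtm6, which keeps PD-L1 at the cell surface, fell from 982 ± 21.7 to 683 ± 15.2 normalized counts (SD, n = 3 each, log2 fold change -0.52, edgeR adjusted p = 3.52e-09). B3gnt3, a glycosyltransferase that acts on PD-L1, fell from 4880 ± 148 to 2969 ± 157 (SD, n = 3 each, log2 fold change -0.72, edgeR adjusted p = 3.09e-14). Gsk3b, a kinase that marks PD-L1 for degradation, rose from 1900 ± 82.5 to 2815 ± 103 (SD, n = 3 each, log2 fold change 0.57, edgeR adjusted p = 2.17e-11), and Cmtm3, a relative of Cmtm6, rose with a log2 fold change of 0.54 (edgeR adjusted p = 2.63e-10). These are transcript levels, and PD-L1 protein was not measured here.

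Of 12 tested genes around Cd47 and engulfment, 1 rose and 7 fell (66.7% against 49.9% of all genes tested), with a median log2 fold change of -0.18. Qpctl, whose enzyme modifies CD47 at its SIRPα binding site, fell from 278 ± 17.5 to 222 ± 2.61 normalized counts (SD, n = 3 each, log2 fold change -0.32, edgeR adjusted p = 0.00281). The call was lost without DMSO sample 3 or SD70 sample 2 (edgeR adjusted p = 0.022 and 0.0117) and with DESeq2 (adjusted p = 0.0114), and Qpctl shares 471 exon bases with Fbxo46 on the opposite strand. The integrin gene Itgav fell from 4509 ± 142 to 2883 ± 156 and the bridging protein gene Mfge8 from 2212 ± 69.5 to 1839 ± 52.6 (SD, n = 3 each). Thbs2, a thrombospondin gene, rose from 8023 ± 224 to 10022 ± 375 (SD, n = 3 each, log2 fold change 0.32, edgeR adjusted p = 7.23e-07). Itgb3, named after its values were seen, was the gene of the list with at least a 2-fold change (8.33% against 5.90% of all genes tested). Its log2 fold change was -1.74 (edgeR adjusted p = 1.92e-04), at 18.7 and 5.51 mean normalized counts. With limma on log2(FPKM + 1) it was at -0.19 and did not pass (adjusted p = 0.0352).

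Genes of adenosine metabolism and signalling, inside and outside the cell, moved either way while Nt5e was barely detected. Of 20 tested, 5 rose and 3 fell, 40% against 49.9% of all genes, and 0 changed at least 2-fold (against 5.90% of all genes tested). Enpp2 (autotaxin), listed with other Enpp genes, rose from 282 ± 14.1 normalized counts to 544 ± 58.2 (SD, n = 3 each, log2 fold change 0.95, edgeR adjusted p = 7.04e-12). A part of Enpp2 in adenosine supply was not tested. Acpp, a phosphatase that like CD73 can make adenosine, rose from 96.6 ± 20.9 to 176 ± 12.5 (SD, n = 3 each, log2 fold change 0.86, edgeR adjusted p = 8.83e-07). Entpd7 fell from 274 ± 8.38 to 151 ± 12.02 (SD, n = 3 each, log2 fold change -0.85, edgeR adjusted p = 5.53e-09). It shares 444 exon bases with Cox15 on the opposite strand, and 4 of its 6 counts were not whole, so its value is uncertain too. Entpd2 fell with a log2 fold change of -0.74 (edgeR adjusted p = 0.00161), a call that was lost without DMSO sample 1 or SD70 sample 1 (edgeR adjusted p = 0.0112 and 0.0136) and with DESeq2 (adjusted p = 0.0119). It shares 612 exon bases on the same strand with Npdc1, which had more counts (969, 934 and 985 with DMSO against 723, 839 and 764 with SD70). Entpd1 (CD39), the enzyme upstream of CD73, was not analysed here.

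Among suppressive enzymes and secreted factors, 19 of 26 genes were tested, of which 8 rose and 5 fell (68.4% against 49.9% of all genes tested), with a median log2 fold change of -0.08. The tryptophan enzyme gene Ido1 had a single count over all 6 samples. 5 genes rose at least 2-fold and 0 fell as far (26.3% against 5.90% of all genes tested). The list was put together with earlier results of these data known, so this share is not independent support. Csf2, Gdf15, Csf3 and Csf1, which encode secreted factors, had log2 fold changes of 4.46, 3.81, 2.87 and 1.80 (edgeR adjusted p = 1.58e-30, 9.32e-08, 1.25e-14 and 1.31e-25 in that order). The fifth, Serpinb9, named after its values were seen, encodes an inhibitor of the T cell protease granzyme B and rose from 203 to 441 mean normalized counts (log2 fold change 1.12, edgeR adjusted p = 7.28e-13).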

How the data were processed

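RNA-seq of 6 samples, 3 with DMSO and 3 with SD70, was grouped by sample title. The authors aligned clean BGISEQ-500 reads to GRCm38.p6 with HISAT and deposited an expected count, not normalized, for each gene. The authors' second deposited column holds values taken as FPKM, since their ratio to the counts gave transcript lengths of GENCODE M21. The submitters' processing notes name StringTie 1.3.3b and the build mm8, which differs from the paper's. The counting tool is not given in the sources used here. Totals ranged from 15276744 to 17060424 counts, and between 8.84% and 9.28% of values per sample were not whole. No pair of samples in a group agreed within counting error (between 2.12 and 4.92 chi-square units per gene).

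Counts were rounded, filtered with filterByExpr, scaled by TMM and compared by the quasi-likelihood test of edgeR 4.0.16, robust setting (R 4.3.3), with Benjamini-Hochberg adjustment over 11552 genes. Standard errors came from the F statistic. Thresholds were an adjusted p of 0.01 and, for calls, an absolute log2 fold change of 1. The code was tested on simulated data first. DESeq2 1.42.0 and limma 3.58.1 (log2 of FPKM plus 1 or 0.1) served as alternatives, beside other scaling, filters, thresholds, glmTreat, a replicate block and leaving out each sample. Of each list, at most 4 genes with the largest absolute log2 fold change were named, given an adjusted p under 0.01 and a mean of at least 20 normalized counts. Members, lists and this rule were chosen with earlier results of these data known. The fall of Vsir and the shares of the lists are thus not independent support. Gene coordinates and upstream sequences came from RefSeq (8 of the members had an upstream sequence there) and overlaps from GENCODE M21, both on GRCm38.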

Additional observations from a re-analysis of the deposited data

How the results depend on the processing

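Under all 15 alternatives, Vsir was the 1 member called. Over the 14 in which log2 fold changes were estimated, Vsir ranged from -1.93 to -1.41, Cd276 from -0.52 to -0.45 and Cd274 from 0.41 to 0.66, each with an adjusted p under 0.01, the values nearest 0 coming from log2(FPKM + 1), which understates the change of low genes. Pvr passed at an adjusted p under 0.05 (log2 fold change 0.14), and with each sample left out it ranged from 0.081 to 0.20 with an adjusted p of up to 0.278. The number of genes called was 681 (380 higher, 301 lower), 284 (202 and 82) with log2(FPKM + 1) and 221 (177 and 44) with glmTreat, in which a pseudocount and a stricter null hypothesis lower the count by construction. Kdm4c was at -0.0071 with log2(FPKM + 1), at -0.0076 with log2(FPKM + 0.1), and between -0.024 and 0.055 with each sample left out. The replicate block gave -1.84 for Vsir, -0.49 for Cd276 and 0.59 for Cd274 with 692 genes called. Same-numbered samples correlated in their deviations from the group means with r = -0.07, 0.05 and 0.11, and not every sample correlated best with its own number. The labels do not say whether same-numbered samples were handled together, and with 3 samples per group these correlations cannot decide it. Of 49 single genes refitted under the alternatives, 40 kept their sign and their side of the adjusted p threshold throughout, the others being Pvr, Kdm4c, Tigit, Qpctl, Entpd2, Itgb3, Dcn, Lyz2 and Cd74. The 2-fold line is not part of that count, and genes near it crossed it, such as Serpinb9 (lowest 0.94), Krt18 (nearest 0 at -0.92) and Enpp2 (highest 1.03). Members whose groups did not overlap numbered between 4 and 6. Depth limits Nt5e, Cd80 and Pdcd1lg2.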
